A study of Homo sapiens with 16 samples.

Results

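The HOXA, HOXB and HOXC clusters are 3 of the groups of homeobox genes of the human genome, on chromosomes 7, 17 and 12. Every deposited peak overlapping 1 of 3 windows of the build hg19 was taken as a member, whatever its strength. The windows run from 27.1 to 27.3 Mb on chromosome 7 for HOXA (200 kb), from 46.58 to 46.83 Mb on chromosome 17 for HOXB (250 kb) and from 54.31 to 54.47 Mb on chromosome 12 for HOXC (160 kb). This gave 106 peaks of the 114213 in all lists. HOXA held 20 of them, HOXB 52 and HOXC 34, and 61 were from TC-32 and 45 from TC-71.

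Both lines come from Ewing sarcoma, a bone and soft tissue tumour of the young. The labels give the phase of therapy as diagnosis for the TC-32 line and as post-chemotherapy for TC-71, and they name no treatment of the cultures. Chromatin was immunoprecipitated with antibodies against BORIS (CTCFL, a germ-line paralog of the insulator protein CTCF), SMC1 (a subunit of the cohesin ring that holds chromatin loops) and H3K27ac (a histone mark of active promoters and enhancers). Each line had 2 samples per antibody and 2 of input, 16 samples in all, but 1 peak list per line and antibody was deposited, so no value below has a replicate error and no test between the lines was possible. TC-32 had the longer lists of SMC1 (32720 peaks against 18264) and H3K27ac (36355 domains against 26334). The depth per sample is unknown, and copy number was not analysed here. An interval of the H3K27ac list is called a domain. The fold below is the authors' enrichment over input, at the summit for SMC1 and BORIS and averaged over the domain for H3K27ac. The percentile of a peak is the share (%) of its own list with an equal or lower −log10 q, the caller's measure of certainty. Peaks of the lines were called common, and an SMC1 peak inside H3K27ac, where they overlapped by at least 1 bp.

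HOX genes encode homeodomain transcription factors that give cells their position along the body axis. Within a cluster the genes lie in the order in which they act from head to tail, and active clusters are often divided into an acetylated part and a silent part, with CTCF and cohesin at sites between them. HOXA2, HOXA3, HOXB1 and HOXB2 are anterior genes that act in the hindbrain and pharyngeal arches. HOXA5, HOXB6, HOXC6 and HOXC8 belong to the central part, active in the trunk. HOXA9, HOXA10, HOXA11, HOXA13, HOXB13, HOXC10, HOXC11, HOXC12 and HOXC13 are posterior genes, used in the lower trunk, limbs and urogenital tract. All 29 member genes were found in the gene table given with the data (GRCh38.p14), which is of another build than the peaks. It was used for names and order only, and no gene was assigned to a peak. By that order the low-coordinate side of a window is the anterior side in HOXA (HOXA2 first, HOXA13 last) and in HOXB (HOXB1 first, HOXB13 last). HOXC runs the other way, from HOXC13 at the low-coordinate side to HOXC4 at the high-coordinate side. Positions below are kb from the low-coordinate end of each window.

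The 3 clusters also share a sequence that the windows were not chosen for. Each carries a gene of the miR-196 family, microRNAs known to repress HOX transcripts. In the gene table MIR196B lies between HOXA9 and HOXA10, MIR196A1 between HOXB9 and HOXB13, and MIR196A2 between HOXC10 and HOXC9. MIR10A, a further microRNA of the HOXB cluster, lies between HOXB4 and HOXB5. The mature 5p strands (RefSeq, GRCh38.p14) are shown 5′ to 3′ because their seed is the shared feature; capitals mark the seed, bases 2 to 8.
hsa-miR-196a-5p: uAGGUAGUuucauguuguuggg
hsa-miR-196b-5p: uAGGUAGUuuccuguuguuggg
hsa-miR-10a-5p: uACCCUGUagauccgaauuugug
MIR196A1 and MIR196A2 give the same mature sequence, and that of MIR196B differs from it at 1 of 22 bases, outside the seed. MIR10A has another seed. These microRNAs were not measured, and no peak was placed on them.

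HOXA had the smallest acetylated share of its window in both lines, and HOXC had a larger one than HOXB, an order that depends on the window in TC-32. With windows widened by 20 kb on each side, TC-32 had 30.6% of HOXB and 29.4% of HOXC acetylated, while TC-71 had 13.2% of HOXB and 19.6% of HOXC. In TC-32, H3K27ac domains covered 58.8 kb of HOXC (36.7%), 80.4 kb of HOXB (32.2%) and 15.96 kb of HOXA (7.98%). In TC-71 they covered 39.1 kb of HOXC (24.5%), 37.98 kb of HOXB (15.2%) and 1.92 kb of HOXA (0.958%). Over chromosomes 1 to 22 and X the covered share was 2.15% in TC-32 and 1.41% in TC-71. HOXC was thus 17.1 times and HOXB 14.9 times as acetylated as the average sequence in TC-32, and 17.4 and 10.8 times in TC-71. The HOXA window stood at 3.71 times the average in TC-32 and at 0.681 times, below it, in TC-71. With lists of equal length, the TC-32 lengths were 57.9 kb in HOXC, 79.5 kb in HOXB and 14.3 kb in HOXA, and those of TC-71 were as given.

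**Figure D1:**
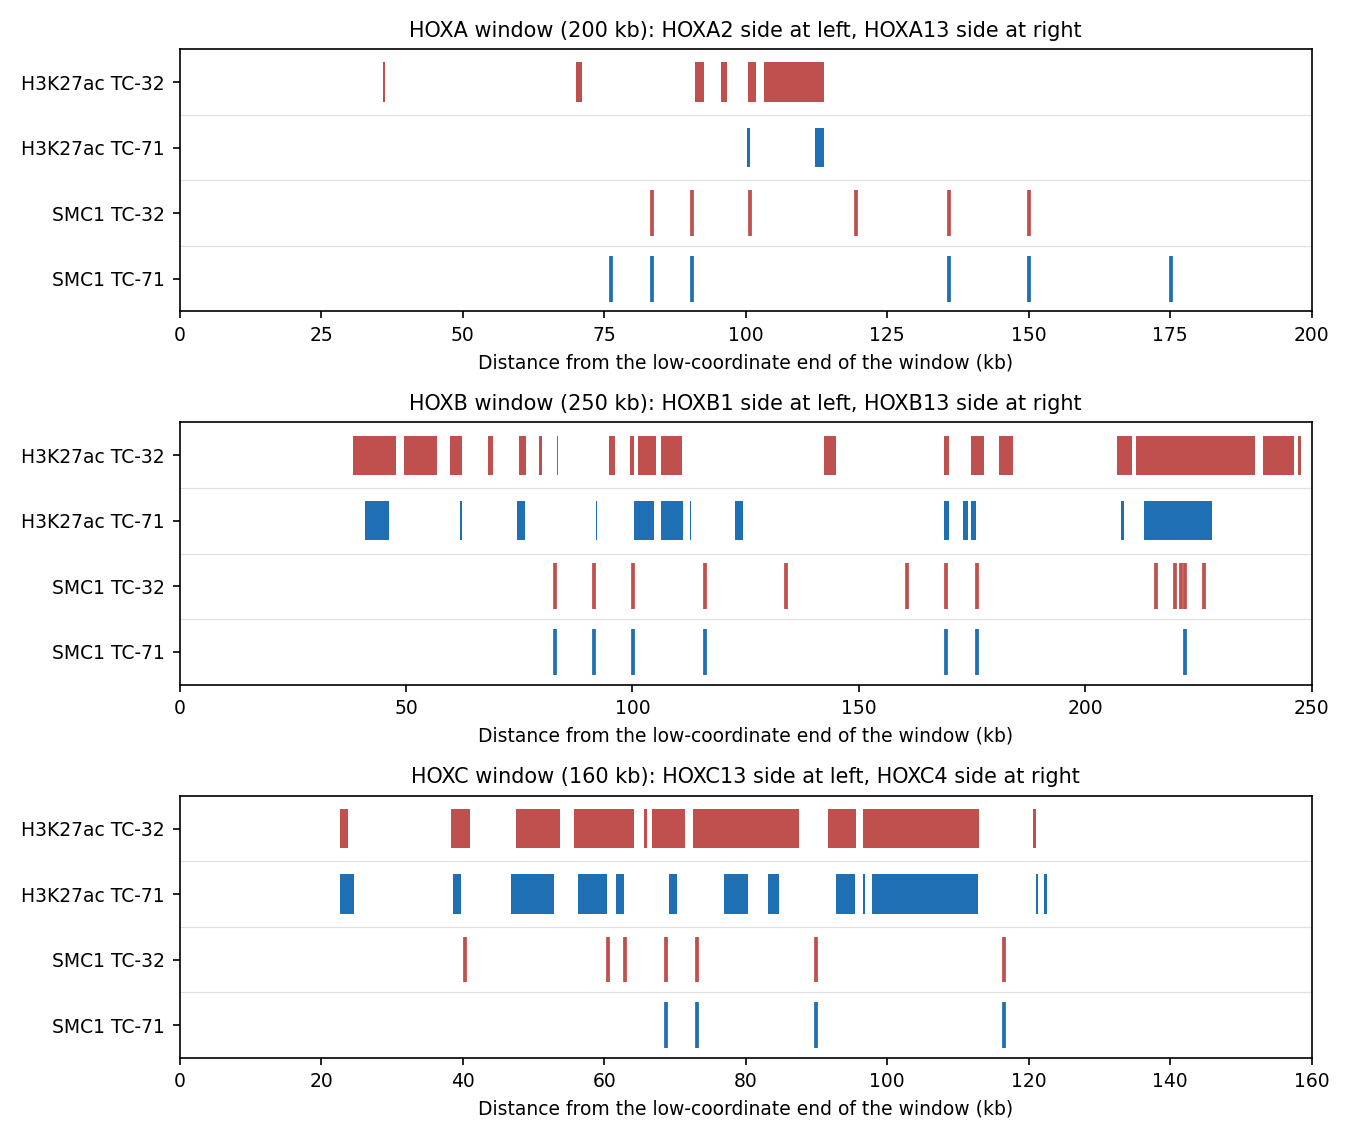
Map of the 3 windows, with distance from the low-coordinate end in kb on the horizontal axis. Bars are H3K27ac domains and ticks are SMC1 summits, in red for TC-32 and blue for TC-71. HOXC is acetylated from 47.6 to 113.0 kb in TC-32 with short breaks and in TC-71 with longer ones, HOXB in separate blocks, and HOXA in a stretch from 91.0 to 113.8 kb in TC-32 of which TC-71 has 2 short domains; no BORIS peak lies in any window.

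Nearly all acetylated sequence of TC-71 was acetylated in TC-32 too, while TC-32 had more. Of the TC-71 length in the 3 windows 90.4% was also covered in TC-32, against 65.1% over all chromosomes. Of the TC-32 length 46.0% was also covered in TC-71, against 42.5% over all chromosomes. In HOXC, 36.8 kb was covered in both lines, 21.96 kb in TC-32 alone and 2.32 kb in TC-71 alone. In HOXB these lengths were 32.9, 47.6 and 5.12 kb, and in HOXA 1.74, 14.2 and 0.172 kb. The TC-32 length was 1.502 times the TC-71 length in HOXC, 2.12 times in HOXB and 8.34 times in HOXA, and 1.53 times over all chromosomes. The HOXC ratio thus stood close to that of the whole lists, and the HOXA ratio, which rests on 2 TC-71 domains, farthest from it.

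**Figure D2:**
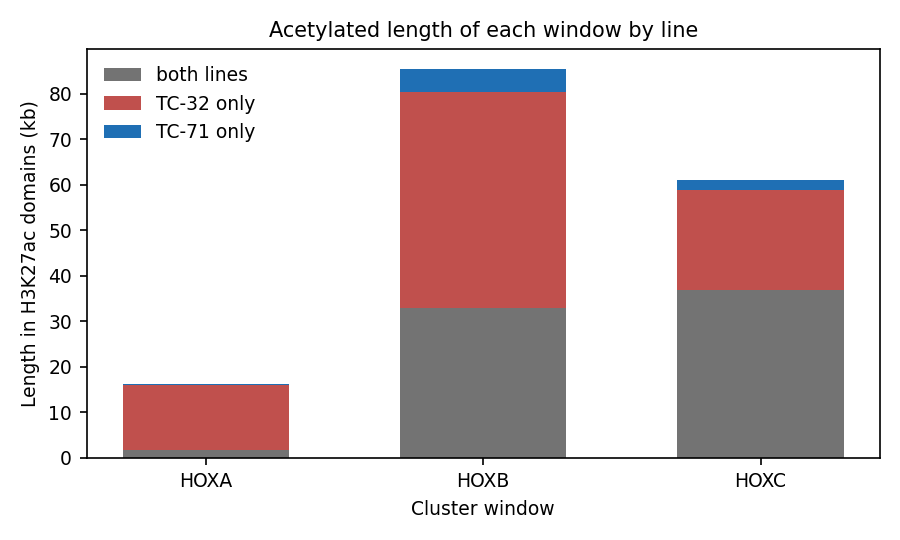
Stacked bars of the acetylated length (kb) of each window: covered in both lines (grey), in TC-32 only (red) and in TC-71 only (blue). The TC-71-only part is at most 5.12 kb, and HOXA holds 1.74 kb common to both lines.

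By number, 21 of the 35 TC-32 domains in the windows overlapped a TC-71 domain (60%, exact Clopper-Pearson 95% interval 42.1 to 76.1%), against 47.1% of the whole TC-32 list. Of the 28 TC-71 domains 23 overlapped a TC-32 domain (82.1%, 63.1 to 93.9%), against 67.3% of the whole TC-71 list. The intervals cover counting error only, and the background of each comparison lies inside its interval. HOXC domains were common to the lines in 9 of 10 cases from TC-32 and 12 of 13 from TC-71. The TC-32 interval in HOXC was 55.5 to 99.7%, above the 47.1% of the list. That of TC-71 was 64.0 to 99.8%, with the 67.3% inside it. HOXB domains were common in 10 of 19 and 9 of 13 cases, and HOXA domains in 2 of 6 and 2 of 2. The backgrounds lay inside the intervals of HOXB and HOXA. Of 35 TC-32 domains 11 had at least 50% of their length covered in TC-71 (31.4%), against 37.7% of the whole TC-32 list under the same rule.

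Acetylation in HOXA was confined in both lines to the side of the window below 113.8 kb, and 14.6 of the 15.96 kb of TC-32 lay between 80 and 120 kb. The widest TC-32 domain was chr7:27203207-27213845 (10.6 kb, from 103.2 to 113.8 kb), with a fold of 6.13 and a percentile of 85.4. It was wider than 99.1% of the TC-32 domains. TC-71 had 1.53 kb of it, chr7:27212255-27213780, with a fold of 5.90 and a percentile of 83.9. The high-coordinate ends of these domains were 65 bp apart, while their low-coordinate ends were 9048 bp apart. The lines thus had nearly the same percentile and high-coordinate edge here and differed in how far the stretch reached toward the HOXA2 side. The other TC-71 domain, chr7:27200268-27200656 (0.389 kb), had a fold of 4.38 and overlapped a TC-32 domain of 1.36 kb with a fold of 2.78. These folds are means over unlike widths and do not measure a difference between the lines.

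Of the 6 HOXA domains of TC-32 2 were common to the lines, against 47.1% of the whole TC-32 list. The other 4 had no counterpart. The highest-ranked was chr7:27170057-27171043 (from 70.1 kb, fold 5.04, percentile 82.96). The widest of these was chr7:27191029-27192648 (1.62 kb, fold 3.37, percentile 47.7). No domain of either line lay between 113.8 and 200 kb, a gap of 86.2 kb in each line. In TC-71 the stretch from 0 to 100.3 kb had no domain either.

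SMC1 summits lay on each side of the acetylated HOXA stretch in TC-32. Domains at most 5 kb apart were joined into blocks, which gave a HOXA block of 22.8 kb from 91.0 to 113.8 kb. The nearest SMC1 summit below it was at 90.6 kb (chr7:27190474-27190707, fold 8.20), 0.422 kb from the block, and the nearest above was at 119.5 kb (chr7:27219413-27219640, fold 7.69), 5.68 kb from it. The lower site was listed in TC-71 too, at 100% of the TC-71 peak's length, and the upper site was listed in TC-32 alone. Another TC-32 peak lay inside the block at 100.8 kb (fold 6.81) and had no TC-71 counterpart. TC-71 had no HOXA block of at least 10 kb.

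Both lines had 6 SMC1 peaks in HOXA, of which 4 were the same sites, at 83.5, 90.6, 136.0 and 150.1 kb. Of the whole lists 50.3% of TC-32 peaks and 90.3% of TC-71 peaks were common. With lists of equal length TC-32 had 4 peaks in HOXA and TC-71 had 6. The strengths of the sites were ordered differently in the lines. In TC-32 the top peak was at 150.1 kb (chr7:27249987-27250350, fold 10.8, percentile 91.3), followed by 90.6 kb (percentile 73.3) and 119.5 kb (percentile 66.6). In TC-71 the top peak was at 83.5 kb (chr7:27183399-27183622, fold 8.04, percentile 71.04), followed by 150.1 kb (fold 5.79, percentile 53.1) and 76.2 kb (chr7:27176116-27176255, fold 5.47, percentile 47.0). The site at 83.5 kb had a percentile of 37.6 in TC-32. The peaks of TC-71 alone were at 76.2 kb and at 175.1 kb (fold 5.05, percentile 29.3), both outside any domain. The nearest SMC1 summits beyond the window were 206 kb below it in each line, and 316 kb (TC-32) and 345 kb (TC-71) above it. From first to last summit the 6 sites spanned 66.6 kb in TC-32 and 98.9 kb in TC-71. Over all chromosomes the lists held 1.08 and 0.602 SMC1 peaks per 100 kb, and whether such flanking distances are unusual was not tested.

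**Figure D3:**
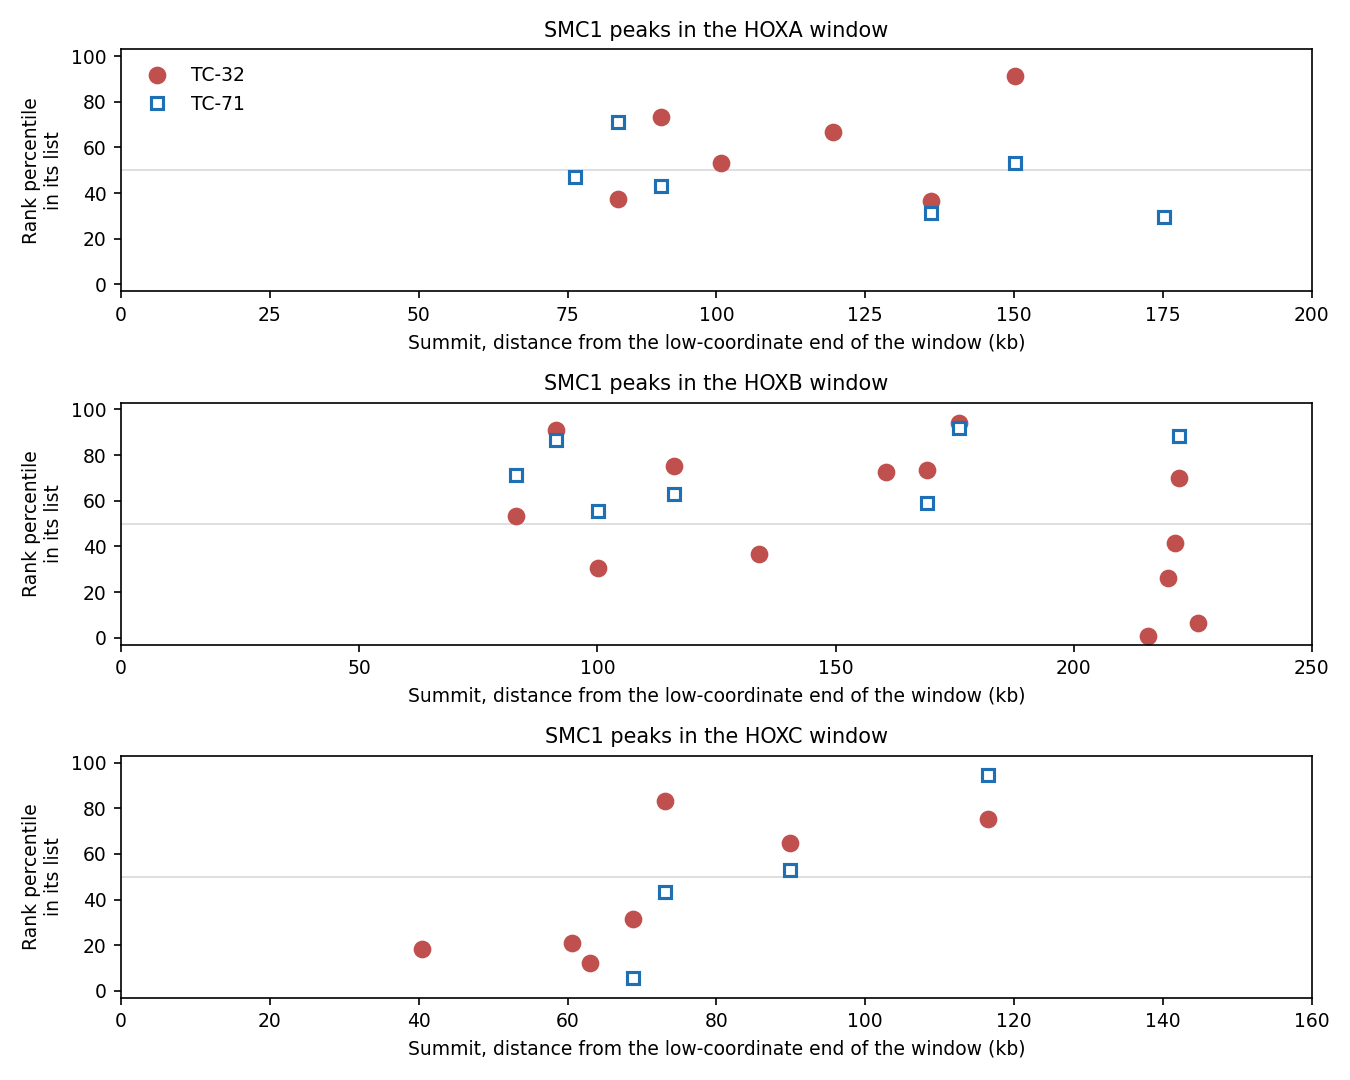
Each point is an SMC1 peak, placed by its summit (kb from the low-coordinate end of the window) and by its rank percentile of −log10 q within its own list, with 100 the highest; filled red circles are TC-32 and open blue squares TC-71. In HOXB the sites at 91.4 and 176.0 kb have percentiles of 86.7 or more in each line, while in HOXC the top site is at 73.1 kb in TC-32 and at 116.5 kb in TC-71.

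HOXB was acetylated in several blocks spread over the window, the heaviest on the HOXB13 side. HOXB13, a prostate and hindgut gene, is set apart from HOXB9 by a long intergenic stretch. From 200 to 250 kb domains covered 74.5% of the sequence in TC-32 and 31.4% in TC-71, the highest share in each line among 5 equal bins of this window. The main domain there was chr17:46791262-46817415 in TC-32 (26.2 kb, fold 8.59, percentile 98.2), the 22nd widest of 36355 domains. In TC-71 it was chr17:46792951-46807888 (14.9 kb, fold 6.19, percentile 95.0), lying wholly inside the TC-32 domain. The low-coordinate ends were 1689 bp apart and the high-coordinate ends 9527 bp. The TC-32 block went on past the window to 258.8 kb, a length of 51.8 kb, while that of TC-71 ended at 227.9 kb after 20.1 kb. A further TC-32 domain there, chr17:46819162-46826073 (6.91 kb, fold 5.31), had no counterpart in TC-71.

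The middle of HOXB was covered to about the same extent in the lines. From 100 to 150 kb domains covered 23.4% in TC-32 and 22.98% in TC-71. Its pair of domains from 100.3 to 111.2 kb matched closely. The first was chr17:46681181-46685212 in TC-32 (fold 6.31, percentile 92.3) and chr17:46680269-46684792 in TC-71 (fold 5.72, percentile 91.8). The second was chr17:46686246-46690914 in TC-32 (fold 5.43, percentile 81.8) and chr17:46686258-46691156 in TC-71 (fold 5.24, percentile 87.7), with low-coordinate ends 12 bp apart. TC-71 alone had a domain at chr17:46702662-46704538 (1.88 kb, fold 4.05), its widest HOXB domain without a counterpart. TC-32 alone had one at chr17:46722262-46724986 (2.725 kb, fold 4.58, percentile 68.8). The close shares of the lines thus come in part from different domains.

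On the HOXB1 side TC-32 had more. From 38.4 to 62.3 kb TC-32 had a block of 23.9 kb, led by chr17:46618415-46627768 (9.35 kb, fold 6.34, percentile 88.1). The next domain, chr17:46629487-46636764 (7.28 kb, fold 4.93, percentile 70.9), was the widest HOXB domain of TC-32 with no counterpart. TC-71 had chr17:46620960-46626250 (5.29 kb, fold 3.69, percentile 61.9) and a domain of 0.321 kb at 62.0 kb. From 50 to 100 kb the covered share was 29.6% in TC-32 and 4.77% in TC-71. No SMC1 peak of either line lay in the lowest 82.9 kb of the window, so this acetylated side had none inside it. The nearest SMC1 summits to this TC-32 block were 48.4 kb below it, outside the window (chr17:46569921-46570218, fold 20.8, percentile 97.6), and 20.6 kb above it, at 82.9 kb.

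HOXB held 13 SMC1 peaks in TC-32 and 7 in TC-71, and all 7 of TC-71 were TC-32 sites, against 90.3% of the whole TC-71 list. The common sites were at 82.9, 91.4, 100.1, 116.1, 169.2, 176.0 and 222.1 kb. The top site was the same in each line, at 176.0 kb. It was chr17:46755851-46756189 in TC-32 (fold 16.7, percentile 94.0) and chr17:46755837-46756143 in TC-71 (fold 8.97, percentile 92.0), with the summits at the same base (0 bp apart). It lay in an H3K27ac domain in each line, though in TC-71 by the edge of the peak, with the summit 114 bp outside. The next in TC-32 were at 91.4 kb (fold 11.6, percentile 91.1) and 116.1 kb (fold 9.60, percentile 75.04). In TC-71 they were at 222.1 kb (chr17:46801919-46802231, fold 7.06, percentile 88.2) and 91.4 kb (fold 6.91, percentile 86.7).

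Of the 13 TC-32 peaks in HOXB 7 were common to the lines (53.8%), against 50.3% of the whole TC-32 list. The other 6 were listed in TC-32 alone. The top one was at 160.7 kb (chr17:46740593-46740810, fold 7.79, percentile 72.6), 8.21 kb below an acetylated block. Another was at 134.0 kb (fold 5.70, percentile 36.6). The remaining 4 lay in the wide HOXB13-side domain, at 215.7, 219.9, 221.2 and 226.2 kb, with folds of 2.84, 4.40, 5.66 and 3.57. All 4 were below the list median in rank, at percentiles of 0.639, 26.3, 41.5 and 6.64. Cutting the TC-32 list to the length of the TC-71 list left 7 HOXB peaks in TC-32, the same number as in TC-71.

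The middle HOXB block had an SMC1 summit within 5.19 kb of each end in both lines. Neighbouring SMC1 summits in HOXB were a median of 8.52 kb apart in TC-32 and 12.3 kb in TC-71. Whether the distances to the block ends are shorter than this spacing alone gives was not tested. In TC-32 the block ran from 94.8 to 110.9 kb, with SMC1 at 91.4 kb (chr17:46671274-46671586), 3.36 kb below it, and at 116.1 kb (chr17:46695961-46696255), 5.19 kb above it. In TC-71 it ran from 100.3 to 113.0 kb, with SMC1 at 100.1 kb (chr17:46680047-46680261, fold 5.28), 0.129 kb below it, and at 116.1 kb (chr17:46696002-46696207, fold 4.63), 3.13 kb above it. The TC-71 block end at 113.0 kb was that of a domain of 0.189 kb (fold 2.97). The site at 100.1 kb was inside the block in TC-32, within a weak domain of fold 2.63. The block on the HOXB13 side had no SMC1 summit so close outside it. From its ends the nearest SMC1 outside was 31.0 kb below and 29.8 kb above in TC-32, and 31.9 and 60.7 kb in TC-71. These were the same sites in each line, at 176.0 kb and, outside the window, at 288.6 kb (fold 9.96 in TC-32 and 13.9 in TC-71). A TC-32 block from 168.9 to 184.0 kb had its nearest outside summits 8.21 kb below, at 160.7 kb, and 31.6 kb above, at 215.7 kb (chr17:46795618-46795755, percentile 0.639).

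**Figure D4:**
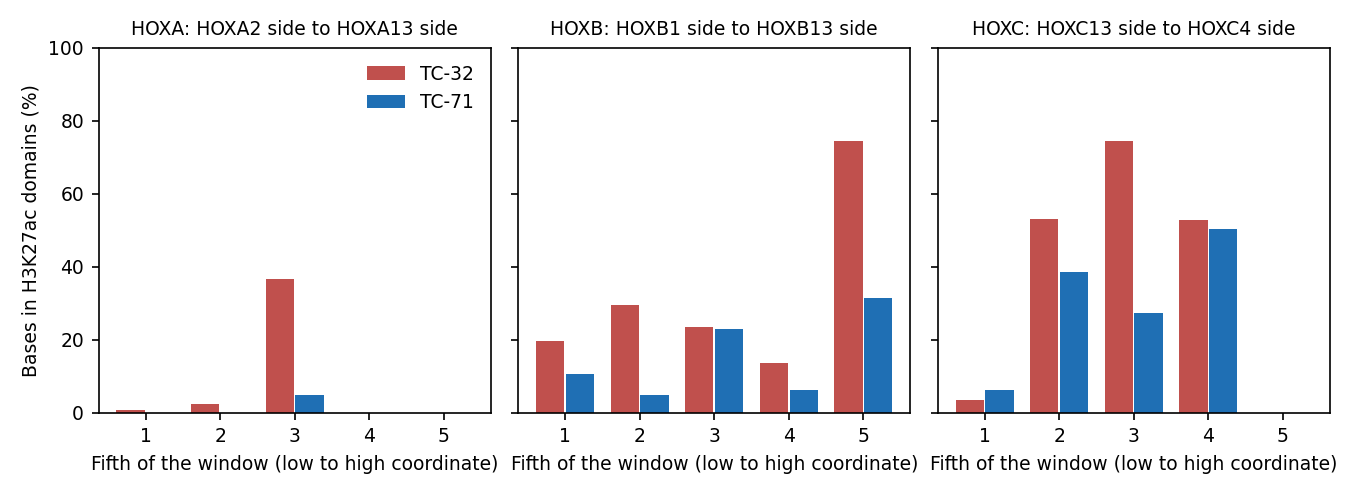
Share of bases in H3K27ac domains (%) in 5 equal bins of each window, from low to high coordinate, for TC-32 (red) and TC-71 (blue). HOXA has its maximum in bin 3 (36.6% and 4.79%), HOXB at the HOXB13 side (74.5% and 31.4%), and HOXC in bin 3 in TC-32 (74.4%) and in bin 4, toward HOXC4, in TC-71 (50.2%).

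HOXC was acetylated mainly between 46.9 and 113.0 kb, away from the ends of the window. In TC-32 a block of 65.4 kb ran from 47.6 to 113.0 kb, of which 54.5 kb was covered by 7 domains. TC-71 had the same stretch in pieces, with blocks of 15.9 kb (46.9 to 62.8 kb), 1.08 kb, 7.77 kb and 20.1 kb (92.8 to 112.9 kb). The outermost part at the HOXC13 side was sparsely marked in each line, with a weak domain at 22.7 kb (fold 2.92 in TC-32 and 3.38 in TC-71). Beyond 122.6 kb neither line had a domain.

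On the HOXC4 side the covered shares of the lines were close. The widest domain of each line was there, chr12:54406579-54423039 in TC-32 (16.5 kb, fold 5.97, percentile 86.2) and chr12:54407868-54422911 in TC-71 (15.0 kb, fold 5.06, percentile 79.2). Their high-coordinate ends were 128 bp apart and their low-coordinate ends 1289 bp, and 93.1% of the TC-32 domain was covered in TC-71. From 96 to 128 kb the covered share was 52.8% in TC-32 and 50.2% in TC-71. The neighbour chr12:54401712-54405554 (TC-32, fold 4.80) and its TC-71 match chr12:54402823-54405522 (fold 5.93) had high-coordinate ends 32 bp apart and low-coordinate ends 1111 bp apart. Such close ends were the minority. Of 26 TC-71 domain ends in HOXC 7 lay within 500 bp of the nearest TC-32 end of the same side, and of 56 in the 3 windows 18 did, with a median distance of 1292 bp.

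In the middle of HOXC the TC-32 coverage was the longer. From 64 to 96 kb the covered share was 74.4% in TC-32 and 27.4% in TC-71. The TC-32 domain chr12:54382647-54397457 (14.8 kb, fold 6.70, percentile 89.9) held 2 separate TC-71 domains, chr12:54386984-54390318 (fold 6.38, percentile 86.6) and chr12:54393110-54394749 (fold 5.98, percentile 84.1). Together they covered 33.6% of it. These TC-71 pieces ranked nearly as high in their list as the long domain did in that of TC-32. The highest-ranked TC-32 domain of HOXC was chr12:54365787-54374152 (8.37 kb, fold 6.79, percentile 92.3), with 61.3% covered in TC-71. The highest-ranked TC-71 domain was chr12:54348657-54349791 (1.14 kb, fold 7.57, percentile 91.6), on the HOXC13 side. There TC-32 had a domain of 2.67 kb with a fold of 4.74 and a percentile of 74.2. These folds too are means over unlike widths. The second widest in TC-71, chr12:54356871-54362937 (6.07 kb, fold 4.02), had a TC-32 match of 6.07 kb with a fold of 5.19. The only domains without a counterpart were short, 0.412 kb in TC-32 (chr12:54375654-54376065, fold 2.65) and 0.52 kb in TC-71 (chr12:54432094-54432613, fold 2.88).

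HOXC held 7 SMC1 peaks in TC-32 and 4 in TC-71, and all 4 of TC-71 were TC-32 sites, at 68.8, 73.1, 89.9 and 116.5 kb, against 90.3% of the whole TC-71 list. With lists of equal length TC-32 had 3 peaks in HOXC and TC-71 had 4, so which line had more depends on list length. The order of the common sites by strength differed between the lists. In TC-32 the site at 73.1 kb came first (chr12:54382866-54383202, fold 11.8, percentile 83.3), then 116.5 kb (chr12:54426421-54426704, fold 7.27, percentile 75.1) and 89.9 kb (fold 5.59, percentile 64.8). In TC-71 the site at 116.5 kb came first (chr12:54426394-54426692, fold 10.7, percentile 94.6), then 89.9 kb (fold 5.79, percentile 53.1) and 73.1 kb (fold 5.31, percentile 43.2). Of the 7 TC-32 peaks 4 were common (57.1%), against 50.3% of the whole TC-32 list. The 3 sites of TC-32 alone lay on the HOXC13 side, at 40.4, 60.6 and 63.0 kb, each inside a TC-32 domain. Their percentiles were 18.3, 21.0 and 12.3. The top one was at 60.6 kb (chr12:54370478-54370645, fold 4.24, percentile 21.0).

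Of the 4 common sites, those at 116.5 and 89.9 kb lay outside H3K27ac domains in both lines. The site at 116.5 kb was above the long block ending at 113.0 kb in TC-32 and at 112.9 kb in TC-71, 3.48 and 3.61 kb from its end. It was not the end of the listed acetylation, because a short weak block lay above it in each line. That block ran from 120.6 to 121.1 kb in TC-32 (fold 2.64) and from 121.0 to 122.6 kb in TC-71 (highest fold 3.13). Its domains had a −log10 q of 3.56 in TC-32 and of 3.72 and 2.64 in TC-71. None of them would pass a −log10 q of at least 5, so this block depends on the threshold. The site at 89.9 kb lay between the TC-71 blocks that end at 84.7 kb and start at 92.8 kb, 2.92 kb from the upper one. In TC-32 it lay between the domains that end at 87.5 kb and start at 91.7 kb. The sites at 68.8 and 73.1 kb were inside domains in TC-32. In TC-71 they were outside, 433 and 2781 bp from the nearest domain. At the HOXC13 side the nearest summit in TC-32 was at 40.4 kb, 7.16 kb below the block (chr12:54350381-54350518, fold 4.54, percentile 18.3). TC-71 had none in the window on that side, and its nearest was 171 kb away (chr12:54185632-54185802, fold 7.13). Between its pieces, the TC-71 block ending at 62.8 kb had SMC1 at 68.8 kb, 6.04 kb above it (fold 3.27).

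Over the 3 windows SMC1 was denser than elsewhere in each line. Peaks per 100 kb were 3.00 in HOXA, 5.20 in HOXB and 4.38 in HOXC in TC-32, against 1.08 over all chromosomes. In TC-71 they were 3.00, 2.80 and 2.5, against 0.602. These densities are 2.78 to 4.83 times the average in TC-32 and 4.16 to 4.99 times in TC-71. Of the 26 TC-32 peaks 15 overlapped a TC-71 peak (57.7%, interval 36.9 to 76.6%), against 50.3% of the whole list. Of the 17 TC-71 peaks 15 overlapped a TC-32 peak (88.2%, 63.6 to 98.5%), against 90.3%. With lists of equal length 11 of 14 TC-32 peaks were common (78.6%), against 74.7% of that whole list, and 11 of 17 TC-71 peaks (64.7%), against 74.9%. Sharing of cohesin sites in the clusters thus stood near that of the lists. At the 15 common sites the summits of the lines were 0 to 24 bp apart, with a median of 7 bp.

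SMC1 peaks met H3K27ac in the windows in 14 of 26 cases in TC-32 (53.8%, interval 33.4 to 73.4%), against 25.9% of the whole TC-32 list. In TC-71 they did so in 3 of 17 cases (17.6%, 3.80 to 43.4%), against 13.6%. By cluster these were 1 of 6 in HOXA, 8 of 13 in HOXB and 5 of 7 in HOXC in TC-32. In TC-71 they were 0 of 6 (interval 0 to 45.9%), 3 of 7 and 0 of 4 (0 to 60.2%). The windows are also more acetylated than the genome, and the part of this in the TC-32 share was not tested. In TC-32, 5 of the peaks in H3K27ac lay in 1 HOXB block, from 207.0 to 258.8 kb, and the interval counts them as separate cases. With SMC1 and H3K27ac lists of equal length the TC-32 share was 4 of 14 (28.6%), against 14.7% of the cut TC-32 list. At a −log10 q of at least 5 it was 9 of 24 (37.5%), with no share of the whole list at that threshold to set beside it.

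BORIS was listed in none of the 3 windows in either line (0 peaks). The TC-71 list has 534 BORIS peaks, a density of 0.176 per Mb, which amounts to 0.107 peaks over the 610 kb of the windows. At that density 0 peaks in the windows cannot be told apart from the genome's average. The nearest TC-71 peak to a cluster was 139 kb above the HOXC window (chr12:54608682-54608782, fold 6.03, rank 246 of 534), at an SMC1 peak and outside any H3K27ac domain. The nearest to HOXA was 1.01 Mb above its window (chr7:28312089-28312231, fold 7.48), also at SMC1 without acetylation. The nearest to HOXB was 1.64 Mb above (chr17:48474884-48474982, fold 5.05), at SMC1 and H3K27ac. Of the 6 TC-32 BORIS peaks 0 were on chromosome 7. The nearest on the other chromosomes were 9.91 Mb above HOXB (chr17:56736475-56736563, fold 7.21) and 28.3 Mb above HOXC (chr12:82752200-82752289, fold 4.81).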

How the data were processed

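Chromatin immunoprecipitation with sequencing was done in 2 lines with 3 antibodies and input. Per the submitters' processing notes, the build was hg19 and the tools included MACS2 2.1.1, STAR 2.5.1b, deepTools 2.2.4, Picard and SAMtools 1.3.1. Their roles and settings, and how replicates were combined, were not given in the sources used here. The authors deposited peak lists with a score (10 times the −log10 q, without decimals), a −log10 q, a −log10 p and a fold enrichment ratio over input. These values describe and rank peaks within a list.

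Distinct intervals on chromosomes 1 to 22 and X were used, each with its strongest summit. Coordinates count from 1. Overlap means at least 1 bp. Rank percentile is the share of a list with an equal or lower −log10 q. Domains at most 5 kb apart were joined into blocks, and block ends were measured for blocks of at least 10 kb. Chromosome lengths came from GenomeInfoDb 1.38.1. Intervals were computed in scipy 1.17.1, with pandas 2.3.3, matplotlib 3.10.9, numpy 2.4.6 and Python 3.11.15, and the overlap code was tested on simulated data.

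Members and lists were chosen with earlier results of these data known. Named peaks are, per cluster and line, the 3 top SMC1 peaks, the 2 widest and 2 top-ranked domains, the widest domain and top SMC1 peak of 1 line only, SMC1 next to block ends, and the nearest BORIS peaks. Others named were chosen after their values were seen. No genome of hg19 was used, so no peak sequence is printed.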

Additional observations from a re-analysis of the deposited data

How the results depend on the processing

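No paired analysis was possible because 1 list per line and antibody was used, with no values per sample, so leaving a replicate out was not possible either. Among 134 values under other settings, 119 shares, lengths or counts kept inside the main share's interval or a factor of 1.5, and 15 moved beyond. The 24 acetylated lengths under other thresholds, list lengths and windows all stayed, as did all values with windows widened or narrowed by 20 kb, but with the wider windows the acetylated share of HOXB in TC-32 (30.6%) passed that of HOXC (29.4%). A −log10 q of at least 5 left 3 of 6 HOXA domains in TC-32, 8 of 13 HOXB domains in TC-71 and 2 of 4 HOXC blocks in TC-32, and set the median distance from a TC-71 block end to SMC1 at 7.64 kb in place of 4.82 kb. Lists of equal length left 7 of 13 HOXB and 3 of 7 HOXC SMC1 peaks in TC-32, against 7 and 4 in TC-71, with 78.6% of the TC-32 peaks shared and 28.6% in a domain. With 50% of a domain covered, 31.4% of TC-32 domains were shared. Joining domains up to 2 kb gave 5 HOXA and 13 HOXB blocks in TC-32, against 3 and 7. Joining up to 10 kb gave 2 HOXC blocks in each line, against 4 and 7, and median distances to SMC1 of 13.7 kb in TC-32 (main 7.69 kb) and 52.7 kb in TC-71, so the closeness of SMC1 to block ends depends on how blocks are joined. Shorter lists and longer joins change these values by construction. Depth is unknown from peak lists, so a missing peak shows only that it was not listed.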
